A study of Homo sapiens with 6 samples.

Results

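The genes examined here were 9 classical p53 target genes: MDM2, MDM4, CDKN1A, PPM1D, GADD45A, SESN1, ZMAT3, TP53INP1 and RRM2B. They were found by gene symbol among the 61541 genes of the count table, where each symbol occurred in a single row, and all 9 passed the filter on low counts that left 17678 genes for testing. The libraries were bulk RNA-seq of H9 cells, a clonal human cell line of cutaneous T-cell lymphoma labelled as wild type (WT), with 3 libraries treated with DMSO, the vehicle, and 3 treated with AZD4573, a selective inhibitor of cyclin-dependent kinase CDK9. The labels give the AZD4573 exposure as 4 h, and the legends of the study give a concentration of 50 nM. The labels do not state the p53 status of the line or the time in DMSO, and the supplemental methods of the study describe most of its cell lines as p53-deficient without naming H9 in that sentence. The labels do not say whether replicates came from separate cultures, so that p-values measure the spread between these libraries, which may be technical.

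The transcription factor p53 is activated by DNA damage, nucleolar stress and other insults and binds a response element made of a pair of similar decamers near its target genes. Its targets arrest the cell cycle, repair DNA, restrain growth signalling and promote cell death, and a few of them (MDM2, MDM4 and PPM1D) restrain p53 itself and close a negative feedback loop. Loss of p53 is recurrent in aggressive T-cell lymphomas. CDK9, as part of P-TEFb, releases paused RNA polymerase II (RNAP2) into productive elongation, and transcripts that turn over quickly depend on continued elongation. The comparison asks which of these genes changed when CDK9 was inhibited.

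The response elements of 3 members are shown because such elements are the sequence that p53 binds. A search of both strands for the full p53 consensus element (2 decamers of 10 bases without a spacer, with the C and G of each core kept and at most 2 mismatches) within 2500 bases of the annotated starts found a match for 3 of the 6 members with a start in the RefSeq promoter table (GRCh38.p14). Of all 11422 tested genes with a start in that table, 4.26% held such a match. The number of mismatches was chosen after the matches were seen. Capitals mark the core of each decamer, and each element is written 5′ to 3′ on the strand of its gene.
CDKN1A: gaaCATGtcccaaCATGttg
MDM2: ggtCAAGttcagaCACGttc
ZMAT3: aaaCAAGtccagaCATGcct
The CDKN1A element (chr6:36676449-36676468, plus strand) lay 2265 bases upstream of the start in the table and overlapped an upstream first exon of the gene in GENCODE release 44. The MDM2 element (chr12:68808923-68808942, plus strand) lay in an intron, 94 bases upstream of the start of transcripts from the internal promoter. The ZMAT3 element (chr3:179070188-179070207, minus strand) lay in an intron, 865 bases upstream of the nearer annotated start, and matched the consensus with 0 mismatches. For MDM4, SESN1 and PPM1D these windows held no match, which says only that the letters were not found there. GADD45A, TP53INP1 and RRM2B were not searched.

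The internal promoter of MDM2 is shown with its element in capitals (the 250 bases before the start, chr12:68808767-68809016, plus strand, from RefSeq on GRCh38.p14), since MDM2 was the member with the highest level per length in the DMSO libraries.
MDM2: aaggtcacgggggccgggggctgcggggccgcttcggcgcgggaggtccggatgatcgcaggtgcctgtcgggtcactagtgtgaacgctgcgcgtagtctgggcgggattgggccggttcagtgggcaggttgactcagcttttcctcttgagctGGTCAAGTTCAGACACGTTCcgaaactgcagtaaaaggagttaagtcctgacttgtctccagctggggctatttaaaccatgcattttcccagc
CDKN1A was the only member not lower at an adjusted p under 0.05 in the main comparison. It was lower when scaled to the mitochondrially encoded mRNAs, as given below. For this reason the same window of CDKN1A (chr6:36678464-36678713, plus strand) is shown, with the GC boxes (GGGCGG on either strand, overlaps counted) in capitals.
CDKN1A: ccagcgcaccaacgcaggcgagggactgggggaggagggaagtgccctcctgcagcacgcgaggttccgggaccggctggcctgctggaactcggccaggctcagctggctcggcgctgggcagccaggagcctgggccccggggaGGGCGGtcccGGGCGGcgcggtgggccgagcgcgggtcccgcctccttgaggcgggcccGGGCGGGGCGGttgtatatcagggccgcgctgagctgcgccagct
It held 4 GC boxes, and 13.5% of the promoters of tested genes held at least as many. At least 1 GC box was found in 65.1% of these promoters. The SESN1 windows held 7, 5 and 1 at its 3 annotated starts. PPM1D held 2, MDM4 held 0, and the windows of MDM2 and ZMAT3 held at most 1. A relation between the number of GC boxes and the response to AZD4573 was not tested. A match describes the letters in the window and not the binding of a factor.

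Counts were taken per gene without regard to strand, and levels are given as CPM, the counts of a gene in proportion to the total of its library, after normalization of the libraries by edgeR's TMM method. Total counts ranged from 70367303 to 76571157 with DMSO and from 52101868 to 63795185 with AZD4573. Of 10 T-cell markers, CD2 had at most 13 counts in any library, and the sum of the markers ranged from 1288 to 1306 CPM with DMSO and from 1558 to 1662 CPM with AZD4573. The 12 markers of other cell types summed to between 210.9 and 233.4 CPM with DMSO and between 229.8 and 238.9 CPM with AZD4573, and VWF and HBB had 0 counts in every library. Most of the second sum came from EPCAM and CD79A. The part of these markers in the results below was not tested. In bulk libraries, fewer cells that express a gene and less of its RNA per cell cannot be told apart.

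Upon AZD4573 treatment, 8 of the 9 members were lower and 0 were higher at an adjusted p under 0.05. The p-values came from the quasi-likelihood test of edgeR, adjusted across the 17678 tested genes by the Benjamini-Hochberg method, and SE is the standard error of a log2 fold change. By the same rule, 37.4% of all tested genes were lower and 37.3% were higher. The exception was CDKN1A, which did not pass the test. With a fold change of at least 1.5 as well, 7 members were lower, against 23.7% of all tested genes, and 0 were higher, against 22.7%. Each AZD4573 library lay below each DMSO library for 8 members, as it did for 38.7% of all tested genes, and above for 0 members, against 39%. The median log2 fold change was -0.75 over the members and 0.03 over all genes tested. Since the members are few and were chosen with earlier results of these data known, these shares describe the list and are not a test of it. The plot of CPM by library shows the values behind each count.

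**Figure D1:**
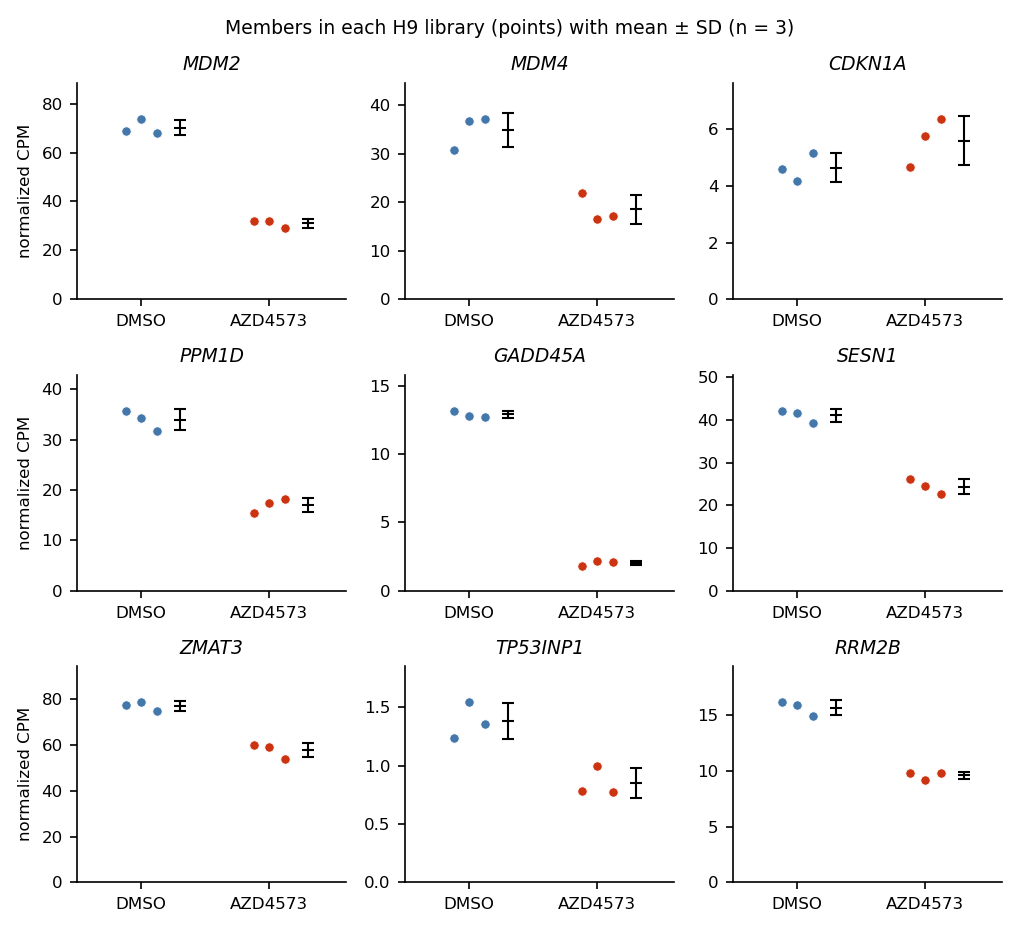
Normalized CPM (y axis, linear from 0, separate for each gene) of the 9 members in the 3 DMSO libraries (blue points) and the 3 AZD4573 libraries (red points), with the mean ± SD (n = 3) in black beside each group. The groups are separated for every member except CDKN1A, whose lowest AZD4573 library lies among the DMSO libraries.

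The scaling of the libraries bears on the direction. RNAP2 does not transcribe the 13 mitochondrially encoded mRNAs, whose share of all counts was 3.13% ± 0.0929 in DMSO libraries and 4.85% ± 0.162 in AZD4573 libraries (SD, n = 3). Scaled to these mRNAs, the median over all tested genes moved to a log2 fold change of -0.71, and 9 members were lower and 0 higher by the adjusted p, against 67.2% and 12.1% of all tested genes. Each member's log2 fold change moved by about as much as this median, so that the order of the members was kept. Differences between members within a library do not depend on the scaling.

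Among the genes that restrain p53, MDM2, MDM4 and PPM1D all fell. MDM2 (ENSG00000135679), the E3 ubiquitin ligase that marks p53 for degradation, spans bases 68808177 to 68845544 of chromosome 12 (GRCh38), with 11 exons in the canonical transcript. Its level was 68.9, 73.7 and 67.8 CPM in the DMSO libraries and 32.0, 32.2 and 29.1 CPM in the AZD4573 libraries. The AZD4573 libraries were close to each other and well below the lowest DMSO library. MDM2 had a log2 fold change of -1.17 (SE 0.0568, edgeR adjusted p = 6.8e-10), and DMSO libraries were 2.26-fold higher. The exons of MDM2 share 1224 of 8306 bases with other annotated genes. The highest of these, carboxypeptidase M on the opposite strand, was at most 3.88 CPM (by library total) in any library. ENSG00000256664, on the same strand, shares 439 bases. By library total it had between 2.27 and 3.06 CPM with DMSO and between 0.749 and 1.35 CPM with AZD4573. The part of these genes in the fall of MDM2 was not tested.

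MDM4 (ENSG00000198625, chromosome 1 from 204516379 to 204558120), a relative of MDM2 that binds p53 and masks its activation domain, had 30.8, 36.7 and 37.1 CPM with DMSO and 21.9, 16.6 and 17.1 CPM with AZD4573. DMSO replicate 1 was the lowest of its group and AZD4573 replicate 1 the highest of its own, yet the groups did not overlap. MDM4 had a log2 fold change of -0.91 (SE 0.101, edgeR adjusted p = 2e-06). MDM4 has 1 annotated pseudogene that could share its reads. Within libraries, there were 49.8 ± 5.04 MDM4 counts for each 100 MDM2 counts with DMSO and 59.6 ± 8.52 with AZD4573 (SD, n = 3), and the groups overlapped.

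PPM1D (ENSG00000170836, chromosome 17 from 60600193 to 60666280), a phosphatase of the PP2C family that dephosphorylates p53 and the kinases that activate it, had 35.7, 34.3 and 31.8 CPM with DMSO. With AZD4573 it had 15.5, 17.5 and 18.2 CPM, each below the lowest DMSO library. The log2 fold change was -0.99 (SE 0.0712, edgeR adjusted p = 2.7e-08), so that PPM1D and MDM4 had 95% intervals that overlap.

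The cell cycle genes CDKN1A and GADD45A stood at opposite ends of the members. CDKN1A (ENSG00000124762, chromosome 6 from 36676460 to 36687337, 3 exons) encodes p21, the inhibitor of cyclin-dependent kinases through which p53 arrests the cycle. It had 4.58, 4.16 and 5.16 CPM with DMSO and 4.66, 5.74 and 6.34 CPM with AZD4573. AZD4573 replicate 1 lay within the range of the DMSO libraries, and replicates 2 and 3 lay above it. The log2 fold change was 0.27 (95% interval -0.01 to 0.55, SE 0.130, edgeR adjusted p = 0.074). The call rests on single libraries, since CDKN1A passed the test in edgeR without AZD4573 replicate 1 (0.38, adjusted p = 0.015) and without DMSO replicate 3 (0.34, adjusted p = 0.0481). It also passed with at least 10 counts required in every library (0.31, adjusted p = 0.0467), and the edgeR and DESeq2 adjusted p lay between 0.00232 and 0.321 across the alternatives. Scaled to the mitochondrially encoded mRNAs, CDKN1A was lower, with a log2 fold change of -0.47 (edgeR adjusted p = 0.00232). DINOL, an antisense transcript, overlaps 146 of the 2996 exon bases of CDKN1A and had at most 2 counts in any library.

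GADD45A (ENSG00000116717, chromosome 1 from 67685201 to 67688334, 4 exons), a stress protein that binds PCNA and p21, showed the deepest fall of the 9. It had 13.2, 12.8 and 12.7 CPM with DMSO and 1.85, 2.16 and 2.11 CPM with AZD4573. The DMSO libraries were nearly equal, and every AZD4573 library was far below them. The log2 fold change was -2.66 (SE 0.0984, edgeR adjusted p = 8.5e-11), a level 6.30-fold higher with DMSO, and 1.09% of all tested genes had a lower log2 fold change. The raw counts went from 1034, 935 and 938 to 94, 123 and 129.

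SESN1 and RRM2B, which act in metabolism and nucleotide supply, were also lower. SESN1 (ENSG00000080546, chromosome 6 from 108984309 to 109094846), a sestrin that restrains mTORC1 signalling, had 42.1, 41.6 and 39.3 CPM with DMSO and 26.1, 24.4 and 22.6 CPM with AZD4573. DMSO and AZD4573 libraries were apart, at a log2 fold change of -0.75 (SE 0.0623, edgeR adjusted p = 1.2e-07). An antisense gene with at most 16 counts in any library overlaps 363 of its 7276 exon bases. RRM2B (ENSG00000048392, chromosome 8 from 102204502 to 102238961), the p53-inducible small subunit of ribonucleotide reductase that supplies deoxynucleotides outside S phase, had 16.2, 15.9 and 14.9 CPM with DMSO and 9.79, 9.19 and 9.80 CPM with AZD4573. RRM2B was likewise lower in each AZD4573 library, at a log2 fold change of -0.71 (SE 0.0721, edgeR adjusted p = 9e-07).

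TP53INP1 (ENSG00000164938, chromosome 8 from 94925972 to 94949378), a stress-induced protein of autophagy and p53 signalling, was the least abundant member. It had 1.24, 1.54 and 1.36 CPM with DMSO, or 97, 113 and 100 counts, and 0.786, 1.00 and 0.770 CPM with AZD4573, or 40, 57 and 47 counts. The log2 fold change was -0.69 (95% interval -1.14 to -0.24, SE 0.209, edgeR adjusted p = 0.0086), the widest interval of the 9. Of its 5643 exon bases, 225 are shared with NDUFAF6 on the opposite strand, which had between 37.7 and 40 CPM (by library total) with DMSO and between 19.4 and 22.1 CPM with AZD4573. Counting without strand cannot separate reads of these bases, and their part in the fall of TP53INP1 was not tested.

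ZMAT3 (ENSG00000172667, chromosome 3 from 178960121 to 179072215), a zinc finger protein that binds RNA, had 77.4, 78.7 and 74.7 CPM with DMSO and 60.1, 59.1 and 54.1 CPM with AZD4573. It fell in every AZD4573 library, by the smallest amount of the members that passed the test. The log2 fold change was -0.41 (95% interval -0.53 to -0.30, SE 0.0517, edgeR adjusted p = 6.8e-06), short of a 1.5-fold change.

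**Figure D2:**
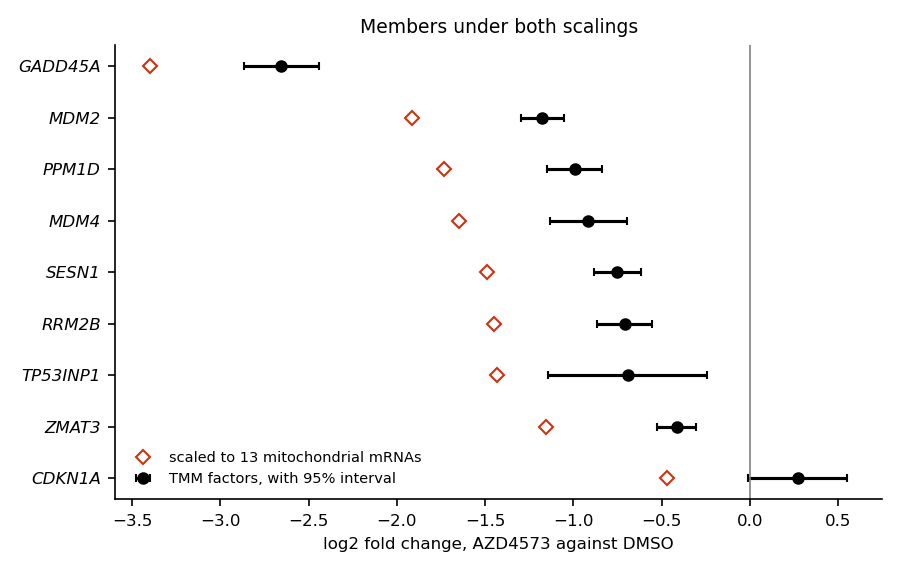
Log2 fold change of each member, AZD4573 against DMSO (x axis), ordered from lowest (top) to highest. Black points are edgeR estimates with TMM factors and bars their 95% intervals; red diamonds are the estimates after scaling to the 13 mitochondrially encoded mRNAs, which lie to the left for every member and put CDKN1A at -0.47 in place of 0.27.

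Ordered by log2 fold change, the members ran from GADD45A (-2.66) through MDM2 (-1.17), PPM1D (-0.99), MDM4 (-0.91), SESN1 (-0.75), RRM2B (-0.71), TP53INP1 (-0.69) and ZMAT3 (-0.41) to CDKN1A (0.27). The 95% interval of GADD45A overlapped that of no other member. The interval of CDKN1A, from -0.01 to 0.55, overlapped none of the others either. From MDM2 to ZMAT3, the intervals of neighbours overlapped. GADD45A with a span of 3.13 kb and CDKN1A with 10.9 kb were the shortest genes of the 9. The longest, ZMAT3 with 112 kb and SESN1 with 111 kb, had log2 fold changes of -0.41 and -0.75. A relation between gene length and fold change was not tested.

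To compare levels between genes, CPM were divided by the kilobases of annotated exon of each gene. By this measure MDM2 was the highest member with DMSO, at 8.44 ± 0.375 CPM per kb (SD, n = 3), followed by ZMAT3 at 6.81 ± 0.182 and GADD45A at 6.70 ± 0.129, whose library values overlapped with those of ZMAT3. SESN1 was at 5.63 ± 0.207, PPM1D at 3.61 ± 0.215 and MDM4 at 3.17 ± 0.323 CPM per kb. RRM2B at 2.90 ± 0.121 overlapped with MDM4, and CDKN1A at 1.55 ± 0.167 and TP53INP1 at 0.244 ± 0.0274 CPM per kb were the lowest. With AZD4573 the order was led by ZMAT3 at 5.11 ± 0.286, with MDM2 at 3.74 ± 0.205 and SESN1 at 3.35 ± 0.239 CPM per kb. CDKN1A moved from place 8 to place 4 at 1.86 ± 0.285, although its library values overlapped with those of PPM1D, RRM2B and MDM4. GADD45A moved from place 3 to place 8 at 1.06 ± 0.0873 CPM per kb. The measure counts every annotated exon of a gene, so that a gene with long exons that H9 cells do not use reads too low.

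Ratios of counts within a library do not depend on the scaling. After values were seen, 10 such ratios were chosen between members or between a member and its paralog. With 3 libraries against 3, the exact two-sided permutation test cannot give a p below 0.1, so that no ratio could pass 0.05. For each 100 MDM2 counts, the DMSO libraries held 6.64, 5.65 and 7.61 CDKN1A counts and the AZD4573 libraries 14.6, 17.8 and 21.8. Each AZD4573 library lay above each DMSO library, a rise of 2.71-fold in the ratio (exact permutation p = 0.1, 0.143 after adjustment over the 10 ratios). The balance of p21 transcripts to those of MDM2 was higher in every AZD4573 library, although CDKN1A itself did not pass the test.

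**Figure D3:**
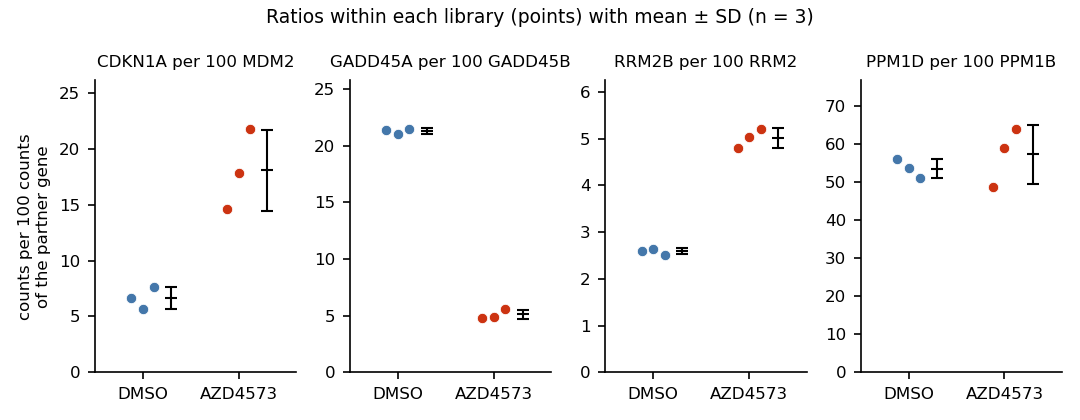
Counts of a member for each 100 counts of a partner gene in the same library (y axis, linear from 0), for the 3 DMSO libraries (blue) and 3 AZD4573 libraries (red), with mean ± SD (n = 3) in black. The ratios of CDKN1A to MDM2 and of RRM2B to RRM2 are higher in each AZD4573 library, the ratio of GADD45A to GADD45B is lower in each, and that of PPM1D to PPM1B overlaps between the groups.

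The paralogs of the members were listed as related genes, of which SESN2 is also a p53 target and is counted in both lists. Of 16 paralogs listed, 15 were tested, of which 7 were lower, 6 higher and 2 did not pass at an adjusted p under 0.05 in edgeR, with a median log2 fold change of -0.07. These were 46.7% lower and 40% higher, against 37.4% and 37.3% of all genes tested. Scaled to the mitochondrially encoded mRNAs, 11 were lower and 1 higher, where 67.2% and 12.1% of all genes tested were. The other inhibitors of the CIP/KIP family were higher where CDKN1A did not pass. CDKN1B (p27) went from 30.4 ± 0.496 to 45.7 ± 1.73 CPM (SD, n = 3, log2 fold change 0.59), and CDKN1C (p57) went from 3.48 ± 0.327 to 5.06 ± 0.600 CPM (SD, n = 3, log2 fold change 0.54). Both reversed under the mitochondrial scaling, to -0.15 and -0.20, without passing the test. CDKN1A counts for each 100 CDKN1B counts went from a mean of 15.2 to one of 12.2, lower in each AZD4573 library (exact permutation p = 0.1).

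All members of the GADD45 family fell. GADD45B went from 60.6 ± 1.18 to 40.0 ± 3.37 CPM (SD, n = 3, log2 fold change -0.60), and GADD45G, which was low in all libraries, from 1.92 ± 0.145 to 0.176 ± 0.0331 CPM (SD, n = 3, log2 fold change -3.42). GADD45A fell more than GADD45B, from 21.3 ± 0.245 to 5.11 ± 0.434 counts for each 100 GADD45B counts (SD, n = 3), 4.18-fold lower in the ratio and lower in each AZD4573 library (exact permutation p = 0.1). Among the sestrins, SESN2 (log2 fold change -0.92) fell along with SESN1, and the ratio of SESN1 to SESN2 overlapped between the groups. SESN3, with at most 0.246 CPM in any library, had a log2 fold change of 0.56 (edgeR adjusted p = 0.32).

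The other subunits of ribonucleotide reductase differed from RRM2B. RRM2, the small subunit of S phase, fell from 605 ± 15.4 to 192 ± 11.2 CPM (SD, n = 3, log2 fold change -1.66). RRM1, the large subunit, had a log2 fold change of -0.07 (edgeR adjusted p = 0.14). RRM2B counts for each 100 RRM2 counts were 2.60, 2.65 and 2.52 with DMSO and 4.79, 5.03 and 5.21 with AZD4573. The ratio was 1.93-fold higher with AZD4573 and higher in each library (exact permutation p = 0.1). Relative to RRM1, RRM2B was lower in each AZD4573 library, from 10.1 ± 0.178 to 6.49 ± 0.383 for each 100 RRM1 counts (SD, n = 3).

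Of the PP2C phosphatases, PPM1A (log2 fold change -0.85) and PPM1B (-1.08) fell about as much as PPM1D, and the ratio of PPM1D to PPM1B overlapped between the groups. PPM1G fell by 0.13 on the log2 scale, and PPM1D counts for each 100 PPM1G counts went from 16.3 ± 0.657 to 8.95 ± 0.791 (SD, n = 3), lower in each AZD4573 library. Zinc finger relatives of ZMAT3 were higher, with log2 fold changes of 1.22 for ZMAT1, 0.26 for ZMAT2 and 0.50 for ZMAT5, and ZMAT4 had 0 counts in every library. ZMAT3 counts for each 100 ZMAT2 counts went from 126 ± 6.77 to 78.9 ± 5.11 (SD, n = 3), lower in each AZD4573 library (exact permutation p = 0.1). Scaled to the mitochondrially encoded mRNAs, ZMAT2 and ZMAT5 reversed to -0.48 and -0.24. TP53INP2, the relative of TP53INP1, had a log2 fold change of 0.18 that reversed to -0.56 under that scaling.

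Beyond the 9 members, 45 other p53 target genes were listed, of which 38 passed the filter on low counts. Of these, 20 were lower, 13 were higher and 5 did not pass at an adjusted p under 0.05 in edgeR's test, with a median log2 fold change of -0.24. The percentages were 52.6% lower and 34.2% higher, against 37.4% and 37.3% of all genes tested. Scaled to the mitochondrially encoded mRNAs, 31 were lower and 3 higher, where 67.2% and 12.1% of all genes tested were. The 7 genes that were not tested had at most 4 counts in any library, and EDA2R, PLK2 and SPATA18 had 0 in all, where a count of 0 allows up to 0.0576 CPM in the shallowest library (3 counts of the total, counting error only).

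Among these targets with at least 1 CPM in a group, the 5 deepest falls were those of RAP2B, DRAM1, E2F7, POLH and TRIAP1. RAP2B, a small GTPase, went from 78.7 ± 2.20 to 15.1 ± 2.09 CPM (SD, n = 3, log2 fold change -2.38). DRAM1, a lysosomal protein of autophagy, went from 1.67 ± 0.0911 to 0.398 ± 0.182 CPM (SD, n = 3, log2 fold change -2.08). E2F7, a repressor of cell cycle genes, had a log2 fold change of -1.37, POLH, a DNA polymerase that bypasses lesions, one of -1.06, and TRIAP1, a mitochondrial survival protein, one of -1.02. These genes were lower in each AZD4573 library and kept their direction under the mitochondrial scaling. ACER2, a ceramidase named after its values were seen, was under that minimum, with 0.853 CPM with DMSO, 0.269 CPM with AZD4573 and a log2 fold change of -1.65.

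Under the same minimum, the 5 largest rises were those of TNFRSF10D, PHLDA3, PIDD1, SFN and CYFIP2. TNFRSF10D, a decoy receptor for the death ligand TRAIL, had 1.08, 1.05 and 1.21 CPM with DMSO and 8.73, 12.6 and 12.3 CPM with AZD4573, a log2 fold change of 3.33 (SE 0.155, edgeR adjusted p = 5e-10). Every AZD4573 library was several times above the DMSO libraries. PHLDA3, an inhibitor of AKT, had 6.50, 6.54 and 4.93 CPM with AZD4573, which was 4.98-fold higher than with DMSO on average, and 598 of its 3243 exon bases are shared with another gene on the same strand. PIDD1, a death-domain protein that activates caspase 2, went from 19.1 ± 1.83 to 46.0 ± 1.94 CPM (SD, n = 3, log2 fold change 1.27). SFN (14-3-3 sigma), which holds cells in G2, had a log2 fold change of 0.89, and CYFIP2, a regulator of actin, one of 0.62. TNFRSF10D, PHLDA3 and PIDD1 stayed higher under the mitochondrial scaling (2.58, 1.58 and 0.53), whereas SFN no longer passed and CYFIP2 reversed to -0.12.

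**Figure D4:**
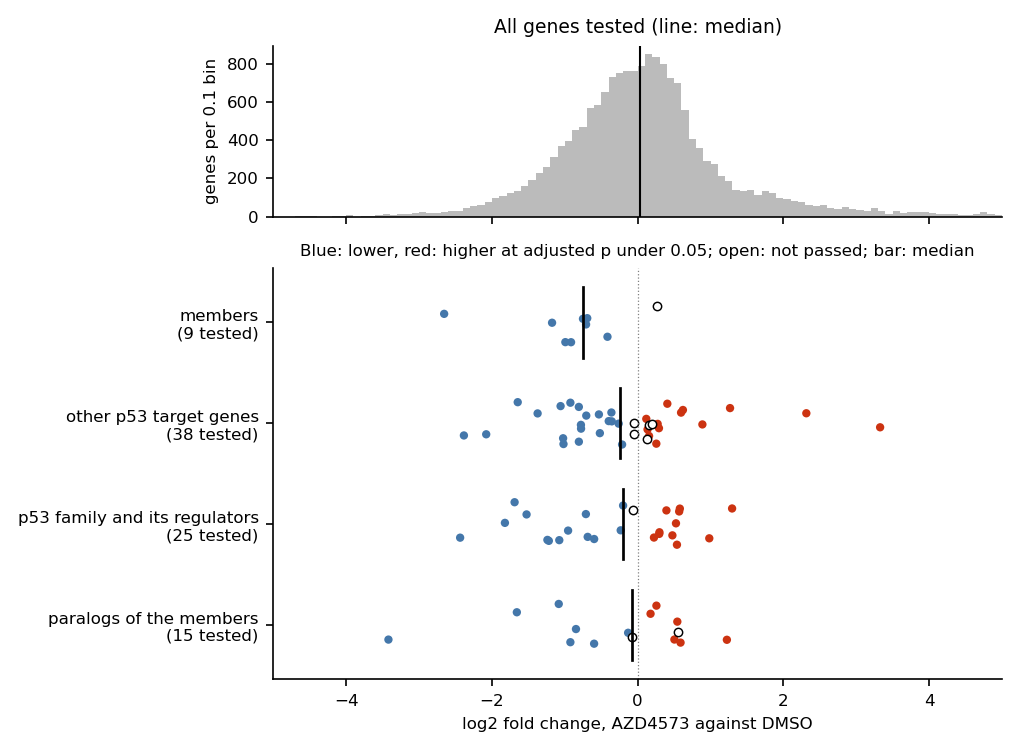
Top, number of genes per 0.1 of log2 fold change for the 17678 genes tested, with the median as a line (the x axis ends at 5 on either side). Bottom, each tested gene of 4 lists by log2 fold change, AZD4573 against DMSO (blue lower and red higher at an adjusted p under 0.05, open not passed, black bar the median); 8 of the 9 members lie in blue on the left, whereas the other lists reach to both sides.

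The proteins that activate, stabilize or modify p53, with its family, made up a list of 27 genes, of which 25 were tested. Of these, 13 were lower, 11 were higher and 1 did not pass, with a median log2 fold change of -0.20. These were 52% lower and 44% higher, against 37.4% and 37.3% of all genes tested. Under the mitochondrial scaling 23 were lower and 2 higher, where 67.2% and 12.1% of all genes tested were. The deepest falls were those of SIRT1, a deacetylase of p53, from 60.7 ± 2.41 to 11.2 ± 0.343 CPM (SD, n = 3, log2 fold change -2.44), and KAT5, an acetyltransferase of p53, with -1.82. Of the 3732 exon bases of KAT5, 1439 are shared with RNASEH2C on the opposite strand. TP53BP2, a protein that directs p53 towards apoptotic targets, had a log2 fold change of -1.69, COP1, a ubiquitin ligase for p53, -1.52, and USP10, a deubiquitinase that stabilizes p53, -1.24. The falls included genes that restrain p53 and genes that promote its activity.

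TP63, a member of the p53 family, rose from 7.55 ± 0.323 to 18.5 ± 1.42 CPM (SD, n = 3). ATM, the kinase that activates p53 after double-strand breaks, rose from 37.4 ± 0.548 to 73.8 ± 3.35 CPM (SD, n = 3, log2 fold change 0.98). Both remained higher under the mitochondrial scaling, with log2 fold changes of 0.55 and 0.24. CDKN2A, whose ARF product inhibits MDM2, had 0 counts in every library.

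Over the 6 libraries, the genes with profiles nearest to that of CDKN1A, by Euclidean distance between centred log2 CPM among 9054 genes of at least 10 CPM, were ERLIN2 (distance 0.179), CPT2 (0.218) and TMLHE (0.228), with log2 fold changes of 0.23, 0.23 and 0.34. For MDM2 they were ARHGAP21 (0.0577), CDC40 (0.0583) and SH2B2 (0.0745), with log2 fold changes of -1.22, -1.16 and -1.17. With 2 groups of 3 libraries, such likeness mainly reflects a similar difference between the groups.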

How the data were processed

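Bulk RNA-seq of H9 cells comprised 3 DMSO and 3 AZD4573 libraries, grouped by their labels. The deposited values are estimated counts per gene, which were rounded to whole numbers before the fit. Per the labels and supplemental methods, the authors trimmed reads with Cutadapt 2.3, aligned them to GRCh38 with STAR 2.7.8a and counted them with RSEM 1.3.3 at its default parameters, which ignore strand. The labels describe poly(A) selection and the supplemental methods rRNA depletion. Of 61546 entries, 5 reporter sequences (0 counts) were left out.

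In edgeR 4.0.16 (R 4.3.3), low genes were removed (minimum count 10), TMM factors computed and groups compared with the quasi-likelihood test and Benjamini-Hochberg adjustment. Standard errors were derived from the fold change and the F statistic. Alternatives were RLE factors, library size only, scaling to 13 mitochondrially encoded mRNAs, other filters, DESeq2 1.42.0, each library left out, a fold of at least 2 and a replicate block. The procedure was tested on simulated data. Genes named were the 9 members, in each of the lists of targets and regulators up to 5 falls and 5 rises (adjusted p under 0.05, fold of at least 1.5, at least 1 CPM, groups apart), and the tested paralogs. The genes most like CDKN1A and MDM2 were the 3 nearest profiles each (prior count 2). The members and lists were chosen with earlier results of these data known, and the within-library ratios after values were seen. Some listed genes are not reported here. Depth was 52101868 to 76571157 counts per library. Libraries of a group differed by more than counting error, with 5.59 to 21.2 as the chi-square divided by its degrees of freedom. Positions and exons came from GENCODE release 44 and promoters from RefSeq, which matched 6 members.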

Additional observations from a re-analysis of the deposited data

How the results depend on the processing

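MDM2, MDM4, PPM1D, GADD45A, SESN1, ZMAT3, TP53INP1 and RRM2B stayed lower and past the threshold in every alternative run, and 113 of 117 values of the members kept both direction and call. The other 4 concern CDKN1A, which reversed to -0.47 when scaled to the mitochondrially encoded mRNAs and passed the threshold in the 3 fits described with it. The number of higher members was therefore 1 with at least 10 counts in every library and 0 to 1 when single libraries were left out in turn. Over all genes, 5913 of the 15247 tested were higher with at least 10 counts in every library. Between 6241 and 6577 were higher when single libraries were left out. At a fold change of at least 2, a stricter rule by construction, 2 members were lower. The share of all tested genes at that fold was not computed, so this count has no background beside it. The mitochondrial scaling gave 11878 lower and 2144 higher genes, with 31 and 3 of the other p53 target genes, 23 and 2 of the regulators, and 11 and 1 of the paralogs. These counts move with the shift in the median of all genes, and neither scaling was tested against RNA per cell. Under it the log2 fold change also reversed for CYFIP2 (-0.12), CDKN1B (-0.15), CDKN1C (-0.20), SESN3 (-0.18), TP53INP2 (-0.56), ZMAT2 (-0.48) and ZMAT5 (-0.24). Of 414 values of the 32 other named genes, 402 kept direction and call, 3 were weaker, 2 stronger and 7 reversed.

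Pairing was not supported by the replicate numbers: same-numbered DMSO and AZD4573 libraries had correlations of -0.0208, 0.0417 and 0.0316 in their deviations from the mean of their group, and not every library correlated best with its own number. With the replicate block, 8 members were lower and 0 higher, and 6524 of all genes were lower and 6447 higher, against 6606 and 6596 without it. Each group has 3 libraries, and depth limits TP53INP1, with at most 113 counts in a library, and the genes under about 1 CPM.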
